A study of Mus musculus with 8 samples.

Results

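Metallothioneins and the genes that answer to zinc were examined in AML12 cells, a mouse hepatocyte line, after 1 h of pulsed weak magnetic field. The 6 genes were picked out by symbol, with earlier results of these data known, and all 6 were found among the 55401 genes of each table. They were the metallothionein genes Mt1 and Mt2, the zinc-sensing transcription factor gene Mtf1, the zinc exporter gene Slc30a1 and the importer genes Slc39a10 and Slc39a14. RNA-seq compared 4 control samples with 4 samples kept for 1 h under Opti-ELF-WMF, an extremely low-frequency weak magnetic field of 4 ms pulses that stepped from 1 to 8 Hz, with a peak of 100 mG. All cells carried the same genetic background, grew in medium with serum, dexamethasone, insulin, transferrin and selenite, and came from a single batch. The control samples stood in an identical setup with the stimulator off, but in another incubator, so that an effect of the field and an effect of the incubator cannot be told apart. The labels do not say whether the samples of a condition were separate cultures, and p-values measure only the spread between these samples. AML12 cells were derived from mice carrying a human TGF-alpha transgene under a mouse metallothionein promoter. Whether reads of that transgene were counted for Mt1 was not tested.

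Metallothioneins are small cysteine-rich proteins that bind zinc, copper and cadmium. When free zinc rises in a cell, the transcription factor MTF-1, the product of Mtf1, binds metal response elements in the promoters of Mt1, Mt2 and Slc30a1 and raises their transcription, while Slc39a10 is a gene that zinc represses through the same factor. Proteins of the SLC30 family move zinc out of the cytosol, and those of the SLC39 family move it in. Liver cells are a main site of metallothionein synthesis, which metals, glucocorticoids and inflammatory signals induce.

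The promoters of Mt1, Mt2 and Slc30a1 are shown because these are the members whose induction by zinc runs through metal response elements. Sequences came from RefSeq on GRCm38.p6, the same build as the mm10 named in the submitters' processing notes, and 5 of the 6 members had an entry, Slc39a14 being the exception. Each entry held 300 bases, 250 before the annotated RefSeq start and 50 from it. Bases outside this window were not searched, so counts of matches hold for this start and window and not for the whole promoter. The core of the metal response element was searched on both strands as TGCACNC or TGCGCNC. Capitals mark the matches in the 250 bases before the start, which lie on the plus strand at chr8:94178839-94179088 for Mt1, chr8:94172368-94172617 for Mt2 and chr1:191906531-191906780 for Slc30a1.

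Mt1: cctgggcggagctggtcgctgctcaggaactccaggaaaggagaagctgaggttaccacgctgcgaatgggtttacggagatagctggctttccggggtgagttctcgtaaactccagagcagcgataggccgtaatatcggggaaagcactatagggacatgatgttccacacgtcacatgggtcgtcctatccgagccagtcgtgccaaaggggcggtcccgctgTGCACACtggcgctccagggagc

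Mt2: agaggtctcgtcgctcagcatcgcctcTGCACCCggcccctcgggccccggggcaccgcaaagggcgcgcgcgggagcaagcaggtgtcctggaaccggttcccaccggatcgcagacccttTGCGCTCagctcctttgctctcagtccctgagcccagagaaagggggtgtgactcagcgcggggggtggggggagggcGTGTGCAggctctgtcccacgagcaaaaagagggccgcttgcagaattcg

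Slc30a1: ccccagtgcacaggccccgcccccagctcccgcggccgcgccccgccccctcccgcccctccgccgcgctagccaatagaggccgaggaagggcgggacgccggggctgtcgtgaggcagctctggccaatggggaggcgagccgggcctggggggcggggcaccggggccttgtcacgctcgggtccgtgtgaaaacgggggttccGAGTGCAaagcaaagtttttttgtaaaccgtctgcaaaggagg

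The Mt1 window held 3 matches to the core, 1 that ended 17 bases before the start and 2 behind it. The latter lay within 25 bases, from position 3 to 27 counted from the start (chr8:94179091-94179115), which read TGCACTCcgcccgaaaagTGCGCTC with the matches in capitals. The Mt2 window held 4 matches, of which 3 began 223, 128 and 50 bases before the RefSeq start and 1 lay at positions 5 to 11 after it. That start is base 94172618, whereas the gene starts at 94172664 in the GENCODE M21 annotation used below. All 4 matches lie upstream of the latter. For Mt1 the RefSeq start is base 94179089, and the GENCODE M21 gene starts at 94179082. Which start these cells use was not tested, and later bases of the gene were not searched. The matches counted for Mt1 and for Mt2 can therefore not be compared, and those of Mt1 cannot be placed inside or outside its transcript. Slc30a1 held 2, from 43 bases before the start and at positions 31 to 37 after it. The single Mtf1 window and both Slc39a10 windows held 0, which says only that these letters were not in these windows. Their RefSeq starts were 124802549 for Mtf1 and 46925776 and 46853618 for Slc39a10. In GENCODE M21 the genes start elsewhere, at 124802104 for Mtf1 (plus strand) and 46892852 for Slc39a10 (minus strand). Of 32851 promoter windows of the same length, 25.7% held at least 1 match, 7.11% held 2 or more, 1.97% held 3 or more and 0.517% held 4 or more. The core of the antioxidant response element, TGACNNNGC, matched once in Mt2, once in Slc30a1 and in 12.4% of all windows, without overlapping a metal response element match. The E box CACGTG and the palindromic glucocorticoid response element matched in 0 of the members' windows, and in 7.15% and 0.00913% of all windows.

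**Figure D1:**
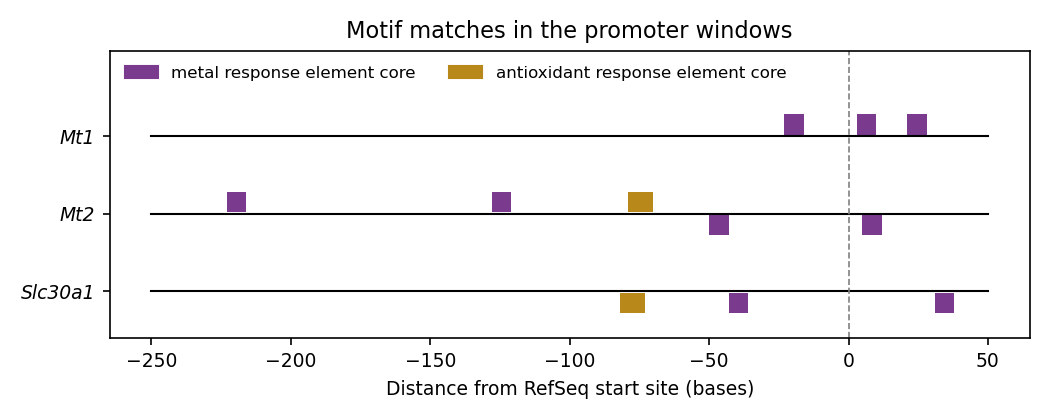
Positions of motif matches in the promoter windows of Mt1, Mt2 and Slc30a1, as distance in bases from the RefSeq start site (dashed line). Purple boxes are metal response element cores and ochre boxes antioxidant response element cores, drawn above the line for matches on the gene's strand and below it for the opposite strand. Mt1 has 3 purple boxes, Mt2 has 4 and Slc30a1 has 2.

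Levels are given as TPM, an abundance per transcript length that is scaled to the same total in each sample. TPM keeps no sequencing depth, so the depth is unknown and no counting interval is given. The tables list between 19386 and 20114 genes above 0 per sample, and the 12122 genes that reached 1 TPM in 4 samples or more were tested, among them all 6 members. Differences were tested with limma on log2(TPM + 1) with Benjamini-Hochberg adjustment over the 12122 genes, and fold changes are on the log2(TPM + 1) scale, on which the difference of a low gene is understated. The cells listed transcripts of the hepatocyte markers Hnf4a (187 ± 8.2 TPM, SD, n = 4 controls) and Ttr (358 ± 20.6 TPM, SD, n = 4 controls), while Alb was at 55.1 ± 2.7 TPM in control and 49.7 ± 3.1 TPM in exposed samples (SD, n = 4 each, limma adjusted p = 0.21) and Afp near 1.03 TPM in control samples. The biliary keratin Krt19 stood at 1153 ± 37 TPM (SD, n = 4 controls). The 8 hepatocyte markers summed to 4611 to 4832 TPM in control and 4900 to 5148 TPM in exposed samples, mostly from Krt8 and Krt18. Both keratins were higher in every exposed sample than in any control, as were 8.01% of all genes tested. By gene, 4 of the 8 were higher and 4 lower (Alb, Ttr, Apoa1 and Afp), and their part in the differences between conditions was not tested. Summed levels ran from 1203 to 1339 TPM for the 4 biliary markers and from 140.3 to 156 TPM, nearly all Cd14, for the 4 leukocyte markers, overlapping between conditions. Of 3 endothelial and 4 fibroblast markers, 0 passed the abundance filter. Their summed levels were at most 0.08 TPM and 1.52 TPM in any sample, and the endothelial marker Cdh5 and the leukocyte marker Adgre1 were listed at 0 throughout.

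Both metallothionein genes were listed at higher levels after exposure, by 8.4% for Mt1 and 11.3% for Mt2, and neither difference passed the adjusted test. The regulator and the 3 transporters among the members differed by less, 2 listed higher and 2 lower. With limma, 0 of the 6 members had an adjusted p-value under 0.05, as did 0% of all genes tested. At an unadjusted p-value under 0.05, 2 members were higher (12.0% of all genes tested) and 0 were lower (3.65% of all genes tested). Those shares were 1451 and 443 genes. The median difference of the 6 members was 0.03 on the log2 scale, against 0.03 over all genes tested.

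Mt1 lies on chromosome 8 from 94179082 to 94180327 (GRCm38, GENCODE M21, plus strand) and was the most abundant member, at rank 231 of the 12122 genes by mean TPM. The control samples 1 to 4 held 546.64, 557.43, 537.25 and 569.59 TPM, and the exposed samples 606.01, 599.07, 617.80 and 573.67 TPM. Every exposed sample lay above every control sample, narrowly in the case of exposed replicate 4 and control replicate 4. The means were 553 ± 13.9 TPM (SD, n = 4) and 599 ± 18.7 TPM (SD, n = 4). On the log2 scale the difference was 0.12 (standard error 0.03, 95% interval 0.05 to 0.18, limma adjusted p = 0.133). An exact two-sided permutation test over the 70 assignments of the samples, without adjustment, gave p = 0.0286, the smallest that 4 against 4 allow. The background for this pattern was broad, since 8.01% of the genes tested were higher with no overlap and 1.86% were lower with no overlap.

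Mt2, its neighbour upstream on the same strand of chromosome 8 (94172664 to 94173568), ranked 244 by mean TPM. Its values were 488.03, 526.36, 515.09 and 502.73 TPM in control samples and 595.12, 522.88, 595.90 and 548.45 TPM in exposed samples. Exposed replicates 1 and 3 stood highest, exposed replicate 4 lay between them and the controls, and exposed replicate 2 was below control replicate 2, so that the conditions overlapped. The means were 508 ± 16.5 TPM (SD, n = 4) and 566 ± 36.1 TPM (SD, n = 4). On the log2 scale the difference was 0.15 (standard error 0.04, 95% interval 0.05 to 0.25, limma adjusted p = 0.164, exact permutation p = 0.0571 without adjustment). Without control replicate 2, or without exposed replicate 2, the remaining samples of Mt2 no longer overlapped. The log2 fold changes were then 0.17 and 0.19 (limma adjusted p = 0.281 and 0.24). In those settings 1216 and 1098 of the 12122 genes tested were higher with no overlap, against 971 with all samples.

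**Figure D2:**
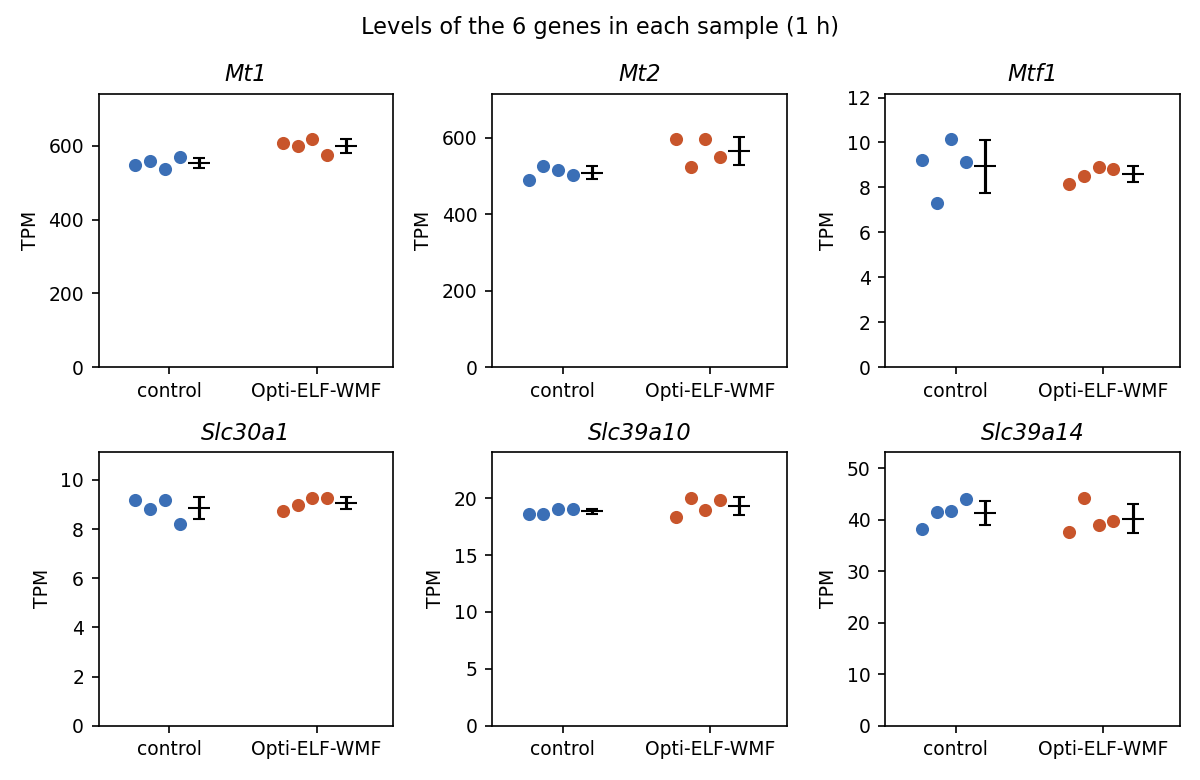
TPM of the 6 genes in each of the 4 control and 4 Opti-ELF-WMF samples, with axes starting at 0. Points are samples in replicate order from left to right, and the bar beside them is the mean with the SD; the exposed points of Mt1 lie between 573.67 and 617.80 TPM, all above the controls, while the conditions overlap in the other 5 genes.

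Higher values after exposure were frequent, at 63.7% of all genes tested on the deposited values. Transcripts of the mitochondrial genome held 8.94% ± 0.34 (SD, n = 4) of TPM in control samples and 7.04% ± 0.76 (SD, n = 4) in exposed samples. When TPM was rescaled without the 37 mitochondrial genes, the log2 fold change was 0.09 for Mt1 (limma adjusted p = 0.295) and 0.12 for Mt2 (limma adjusted p = 0.365). Median-of-ratios scaling gave 0.09 for Mt1 and 0.12 for Mt2, and upper-quartile scaling gave 0.08 for Mt1 and 0.12 for Mt2. Under each of these 3 scalings both genes stayed higher, but exposed and control samples of Mt1 overlapped, and the median difference of all genes moved from 0.03 to between -0.0053 and -0.0013.

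**Figure D3:**
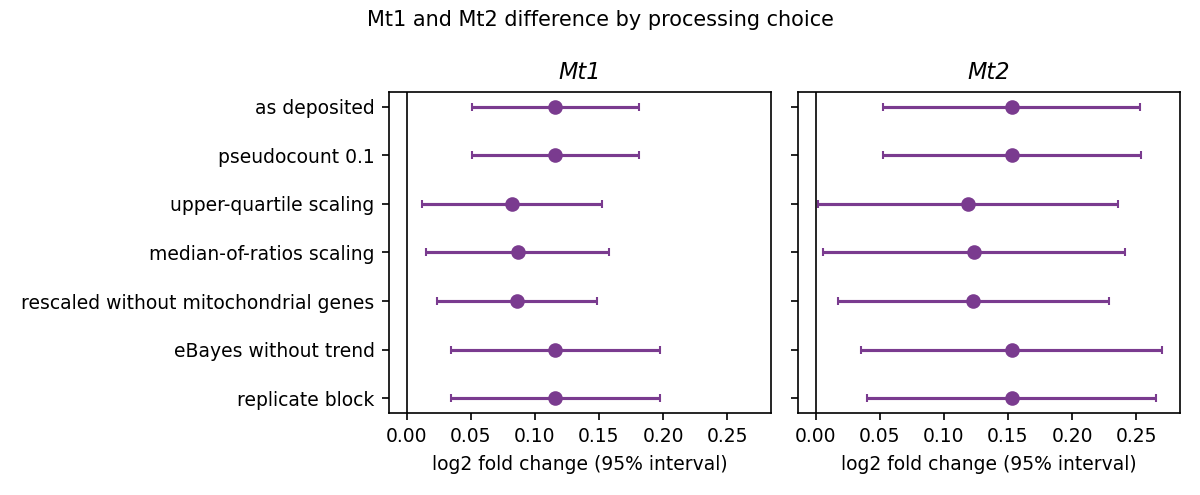
Log2 fold change of Mt1 (left) and Mt2 (right), exposed minus control, with its unadjusted 95% interval under 7 ways of processing. For Mt1 the estimate was 0.12 on the deposited values and 0.08 to 0.09 under the 3 other scalings, for Mt2 0.15 and 0.12.

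Together the 2 metallothionein genes held 0.103%, 0.108%, 0.105% and 0.107% of TPM in the control samples and 0.12%, 0.112%, 0.121% and 0.112% in the exposed samples. The ratio of Mt1 to Mt2 within a sample does not depend on the scaling. It ran from 1.02 to 1.15 over the 8 samples, so Mt1 was the higher of the pair in each of them. On the log2 scale the ratio was 0.12 ± 0.06 (SD, n = 4) in control samples and 0.08 ± 0.08 (SD, n = 4) in exposed samples, and the difference of -0.04 was smaller than either SD. Across the 8 samples, the log2(TPM + 1) values of Mt1 and Mt2 gave Pearson's r = 0.79 (exact permutation p = 0.0216, adjusted p = 0.324 over 15 pairs of members) and Spearman's rho = 0.79 (exact permutation p = 0.0279, adjusted p = 0.35 over 15 pairs). Without the 2 samples farthest from the median of Mt1 the Pearson coefficient was 0.74, and for deviations from the means of the conditions it was 0.41, so part of the relation was the difference between conditions. The 2 genes could be told apart in sequence, because the longest identical stretch between any of 3 Mt1 and 2 Mt2 transcripts was 20 bases. The antisense gene Gm45774 shares 432 exon bases with Mt2 on the opposite strand and was listed at 0.38 to 0.80 TPM.

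**Figure D4:**
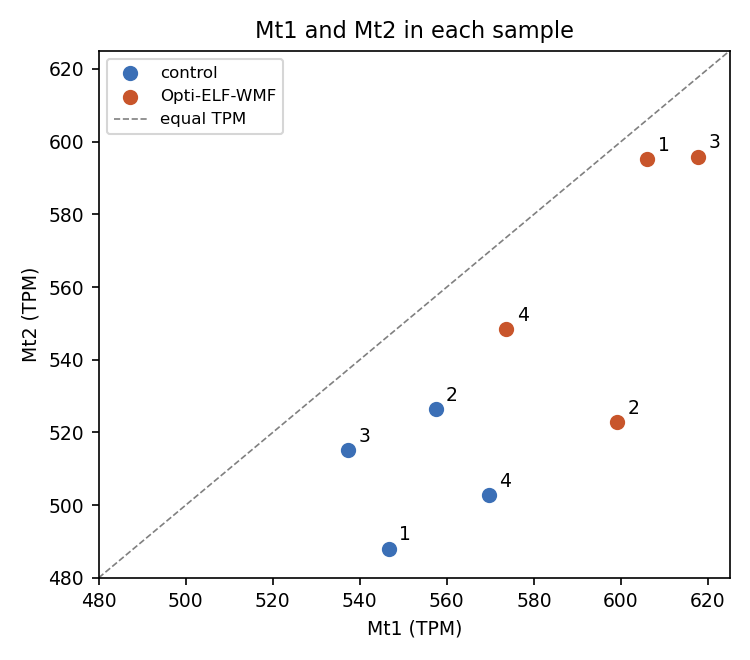
Mt2 against Mt1, both in TPM, with 1 point per sample numbered by replicate and coloured by condition, on axes that do not start at 0. All 8 points lie under the dashed line of equal TPM, and exposed replicates 1 and 3 have the highest values of Mt2 (595.12 and 595.90 TPM).

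Mtf1, on chromosome 4 from 124802104 to 124849800, encodes the zinc finger factor that senses the metal and switches on the metallothionein genes. It was listed at 9.20, 7.32, 10.15 and 9.12 TPM in control samples and 8.15, 8.53, 8.90 and 8.83 TPM in exposed samples. The exposed values all fell within the range of the controls, in which replicates 2 and 3 were the lowest and the highest of all samples. The log2 fold change was -0.04 (95% interval -0.23 to 0.15, limma adjusted p = 0.853), and it was 0.01 without control replicate 3. Without control replicate 2, the lowest sample, it was -0.13 (limma adjusted p = 0.44), and every exposed sample then lay below the remaining controls. In that setting 2.76% of all genes tested were lower with no overlap. Mtf1 shares 721 exon bases with 1110065P20Rik on the opposite strand, which was listed at 15.77 to 23.79 TPM. The libraries were stranded, but whether the counting used strand is not given in the sources used here, so the level of Mtf1 is uncertain.

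Slc30a1, on chromosome 1 from 191906767 to 191913247, encodes the exporter of the plasma membrane that zinc induces together with the metallothioneins. Its values were 9.20, 8.81, 9.17 and 8.22 TPM in control samples and 8.75, 8.96, 9.25 and 9.28 TPM in exposed samples. Control replicate 4 was the lowest sample and the other 7 lay between 8.75 and 9.28 TPM. The log2 fold change was 0.03 (95% interval -0.09 to 0.15, limma adjusted p = 0.826), and it was -0.00012 without control replicate 4. The antisense gene 1700034H15Rik, which shares 468 exon bases with it, was listed at 0.21 to 0.46 TPM.

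Slc39a10, on chromosome 1 from 46807544 to 46892852, encodes a zinc importer of the plasma membrane. It stood at 18.62, 18.60, 19.05 and 19.05 TPM in control samples and at 18.38, 20.05, 18.96 and 19.82 TPM in exposed samples. Exposed replicate 1 was the lowest of the 8 samples and exposed replicate 2 the highest, so the conditions overlapped, and the log2 fold change was 0.03 (95% interval -0.06 to 0.12, limma adjusted p = 0.744). Leaving out 1 sample it ran from 0.016 (without exposed replicate 2) to 0.055 (without exposed replicate 1), and under upper-quartile scaling it was 0.0012.

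Slc39a14, on chromosome 14 from 70303469 to 70351425, encodes an importer of zinc, manganese and iron that is prominent in liver. Its values were 38.18, 41.45, 41.77 and 44.00 TPM in control samples and 37.71, 44.33, 39.03 and 39.86 TPM in exposed samples. The lowest and the highest sample were both exposed ones, and the log2 fold change was -0.04 (95% interval -0.17 to 0.09, limma adjusted p = 0.797). Leaving out 1 sample it ran from -0.086 (without exposed replicate 2) to -0.0096 (without control replicate 4). A relation between the importers Slc39a10 and Slc39a14 did not pass the test, with Pearson's r = 0.57 over the 8 samples (exact permutation p = 0.148, adjusted p = 0.88 over 15 pairs) and Spearman's rho = 0.73 (exact permutation p = 0.0467, adjusted p = 0.35 over 15 pairs). The Pearson coefficient was 0.68 without the 2 samples farthest from the median of Slc39a10 and 0.41 under median-of-ratios scaling. Leaving out 1 sample it ran from 0.32 (without exposed replicate 2) to 0.76 (without exposed replicate 4, adjusted p = 0.213 by the exact permutation test). For deviations from the means of the conditions it was 0.76. By the same exact permutation test, the other 13 pairs of members had adjusted p-values of 0.88 to 0.928 for Pearson's r. Exact two-sided permutation tests of the difference between conditions, without adjustment, gave p = 0.657 for Mtf1, 0.457 for Slc30a1, 0.343 for Slc39a10 and 0.514 for Slc39a14.

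In both conditions the order of levels was Mt1, Mt2, Slc39a14, Slc39a10, and then Mtf1 and Slc30a1, with ranks of 231, 244, 3956, 6549, 8722 and 8678 among the genes tested. In control samples Mt1 lay above Mt2 without overlap (lowest Mt1 537.25, highest Mt2 526.36 TPM), and in exposed samples their ranges overlapped. Slc39a14 and Slc39a10 were separated in every sample. Mtf1 and Slc30a1 overlapped in control and in exposed samples, with means of 8.95 and 8.85 TPM in the former and 8.60 and 9.06 TPM in the latter, and their order did not hold between conditions.

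The wider zinc machinery was described from lists of gene families, with counts and no list test. Of the 4 listed metallothionein genes only Mt1 and Mt2 were abundant enough to test. Mt3, the form of the brain, was listed at no more than 0.70 TPM in any sample, and Mt4, the form of stratified epithelia, at 0 in all 8. Of 25 genes of the SLC30 and SLC39 families and Tmem163, 16 were tested. Among these, 12 were higher and 4 lower, a share of 75% higher against 63.7% of all genes tested, and 11 were higher under each of the 3 other scalings, where 47.0% to 49.2% of all genes tested were. By unadjusted limma p-value under 0.05, 2 were higher (Slc30a4 and Slc39a7, against 12.0% of all genes tested) and 1 was lower (Slc39a13, against 3.65%), counts near the background for 16 genes. Of the 16, 0 were higher with no overlap (8.01% of all genes tested) and 0 were lower with no overlap (1.86%). The adjusted test was passed by 0 of them and by 0% of all genes tested.

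Of 11 listed exporters, 6 were tested, and all 6 had a positive difference as deposited, where 63.7% of all genes tested were higher. All 6 were also positive under the 3 other scalings (47.0% to 49.2% of all genes tested), but Slc30a1 only by 0.00088 to 0.0048. Without control replicate 4, 5 were higher and 1 (Slc30a1) was lower. The median was 0.05 on the log2 scale as deposited against 0.03 over all genes tested. Slc30a4, which fills intracellular vesicles with zinc, ran from 17.77 to 18.57 TPM in control samples and from 18.23 to 19.95 TPM in exposed samples, differing by 0.10 on the log2 scale (standard error 0.04, limma adjusted p = 0.298). Slc30a5 and Slc30a6, which form a complex of the early secretory pathway, differed by 0.06 and 0.04 on the log2 scale (limma adjusted p = 0.413 and 0.753). Slc30a9, a transporter of mitochondria, was the most abundant exporter, at 53.0 ± 2.1 TPM (SD, n = 4) in control and 54.7 ± 1.7 TPM (SD, n = 4) in exposed samples. Slc30a7, another transporter of the Golgi, was the least steady of the tested zinc genes. It stood at 23.63, 21.21, 11.47 and 21.30 TPM in control samples and at 22.77, 25.23, 15.45 and 29.24 TPM in exposed samples, with replicate 3 the lowest in both, and its log2 fold change of 0.26 had a standard error of 0.23. Slc30a3, Slc30a8 and Slc30a10 were listed at 0 in every sample, and Slc30a2 and Tmem163 reached at most 0.09 and 0.12 TPM.

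Of 14 listed importers, 10 were tested, of which 6 were higher and 4 lower, with a median of 0.03, and under each of the 3 other scalings 5 were higher and 5 lower, with a median below 0. The most abundant was Slc39a7, which releases zinc from the endoplasmic reticulum and Golgi into the cytosol. It was listed at 140.42, 150.35, 150.95 and 158.80 TPM in control samples and at 158.08, 175.80, 159.10 and 169.73 TPM in exposed samples. Exposed replicate 1 lay just below control replicate 4, and the other 3 exposed samples lay above all controls. The log2 fold change was 0.14 (standard error 0.05, 95% interval 0.04 to 0.24, limma adjusted p = 0.186). Slc39a13, also a transporter of intracellular membranes, differed in the other direction. It was listed at 18.94, 17.68, 21.36 and 18.54 TPM in control samples and at 16.70, 16.26, 15.95 and 18.52 TPM in exposed samples, of which 3 lay under every control sample. Its log2 fold change was -0.17 (standard error 0.07, 95% interval -0.32 to -0.03, limma adjusted p = 0.247).

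The other tested importers differed by less. Slc39a1, an importer of the plasma membrane found in most cells, had means of 61.0 and 62.8 TPM, and Slc39a4, known for zinc uptake in the intestine, had means of 40.9 and 42.3 TPM. Slc39a6, a partner of Slc39a10, had a log2 fold change of 0.07, Slc39a9 of 0.02, Slc39a11 of -0.02 and Slc39a3 of -0.03, with limma adjusted p-values from 0.725 to 0.943. Slc39a2, Slc39a5 and Slc39a8 were below the abundance limit, the last at 0.35 to 0.65 TPM, and Slc39a12 was listed at 0 throughout. Relative to Slc30a1 in the same sample, Slc39a10 stood 1.09 ± 0.09 (SD, n = 4) higher on the log2 scale in control samples and 1.09 ± 0.05 (SD, n = 4) higher in exposed samples. For Slc39a14 the ratio was 2.22 ± 0.15 (SD, n = 4) and 2.15 ± 0.11 (SD, n = 4). For Slc39a13, the importer with the largest difference of this ratio, it was 1.11 ± 0.10 (SD, n = 4) and 0.89 ± 0.09 (SD, n = 4). Over the 10 tested importers the difference, exposed minus control, ran from -0.22 (Slc39a13) to 0.11 (Slc39a7).

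**Figure D5:**
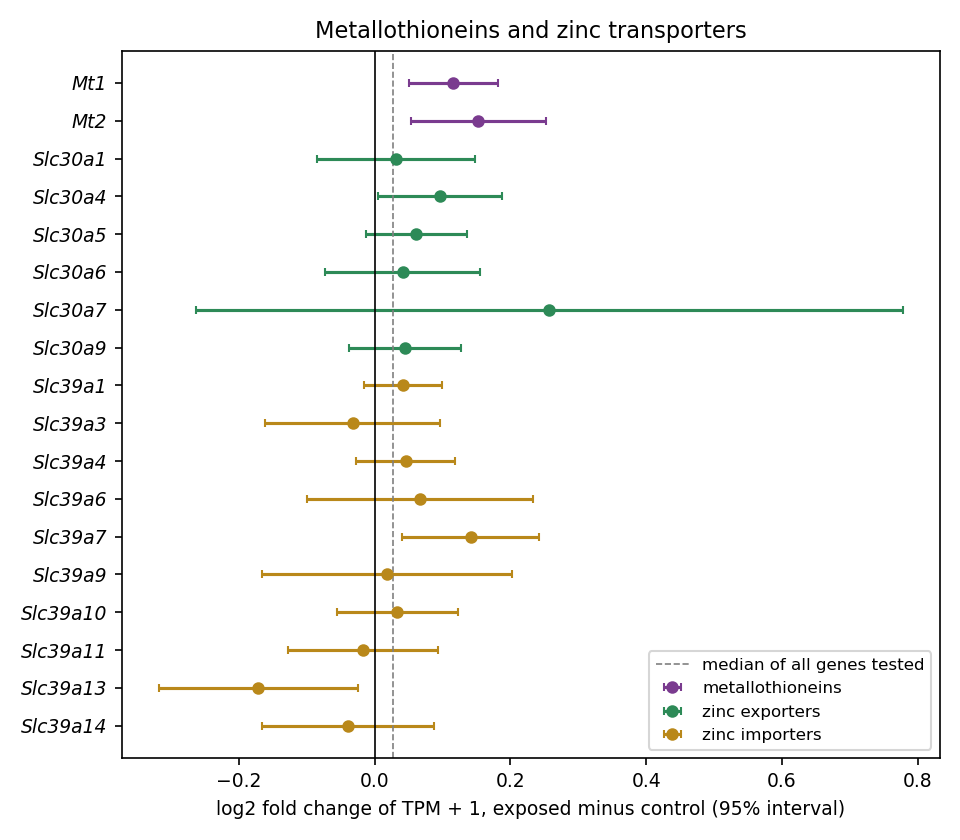
Log2 fold change of TPM + 1, exposed minus control, with its unadjusted 95% interval, for the 2 metallothionein genes, 6 exporters and 10 importers tested (4 samples per condition). The dashed line is the median of all genes tested (0.03); the intervals of Mt1, Mt2, Slc30a4 and Slc39a7 lie above 0 and that of Slc39a13 below it, where 12.0% of all genes tested were higher and 3.65% lower at an unadjusted p-value under 0.05, and 0 of the 18 genes passed the adjusted test.

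Other genes known as targets of MTF-1 were 6 in number, all tested, of which 2 were higher and 4 lower, with a median of -0.02, and 0 were higher and 6 lower under each of the 3 other scalings. The 2 with the smallest p-values were Cebpa, a transcription factor gene of hepatocytes, at 9.21 ± 1.32 and 7.94 ± 0.67 TPM (SD, n = 4 each, limma adjusted p = 0.371), and Gclc, the catalytic subunit of glutathione synthesis, at 340 ± 2.2 and 347 ± 12 TPM (SD, n = 4 each, limma adjusted p = 0.678). Copper handling, in which metallothioneins also take part, was represented by 10 tested genes, of which 7 were higher and 3 lower, with a median of 0.02, whereas 4 were higher and 6 lower under each of the 3 other scalings. The copper chaperone gene Atox1 was at 247 ± 5.5 TPM in control and 232 ± 11.2 TPM in exposed samples (SD, n = 4 each, limma adjusted p = 0.247). Slc31a2, a copper transporter of endosomes, was at 10.4 ± 0.5 and 9.34 ± 0.49 TPM (SD, n = 4 each, limma adjusted p = 0.27) and was the 1 gene of the 10 whose conditions did not overlap, against 1.86% lower and 8.01% higher with no overlap among all genes tested.

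Metals and oxidants induce a further set of stress genes together with the metallothioneins. Of 10 listed, 9 were tested, with 6 higher, 3 lower and a median of 0.04, and under each of the 3 other scalings 5 were higher and 4 lower, Hmox1 being the gene that turned. Srxn1, which repairs oxidized peroxiredoxins, was at 31.2 ± 1.6 TPM in control and 35.0 ± 2.3 TPM in exposed samples (SD, n = 4 each, limma adjusted p = 0.202). Dnajb1, a heat shock cochaperone gene, was at 30.3 ± 0.9 and 31.6 ± 0.6 TPM (SD, n = 4 each, limma adjusted p = 0.467), and Hmox1, a gene strongly induced by cadmium, at 35.0 ± 1.1 and 35.4 ± 1.6 TPM (SD, n = 4 each, limma adjusted p = 0.911).

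Glucocorticoids induce metallothioneins, and the medium contained dexamethasone. Of 9 genes of the glucocorticoid response, 8 were tested, 4 higher and 4 lower, with a median of -0.01, and 3 were higher and 5 lower under each of the 3 other scalings. Tsc22d3, a standard glucocorticoid target, was listed at 149.01, 145.19, 143.16 and 145.03 TPM in control samples and at 136.70, 137.05, 139.43 and 140.99 TPM in exposed samples. Its exposed samples all lay below the controls, with a log2 fold change of -0.07 (standard error 0.02, limma adjusted p = 0.194). Of all genes tested, 1.86% were lower with no overlap. A part of glucocorticoids in the levels of Mt1 and Mt2 was not tested. Sgk1, a kinase gene of the same response, was at 246 ± 5.2 and 255 ± 9 TPM (SD, n = 4 each, limma adjusted p = 0.458). For the interleukin-6 and acute-phase response, which induces metallothioneins and Slc39a14 in liver, 5 of 10 listed genes were tested and all 5 were higher, with a median of 0.02, but 1 was higher under upper-quartile scaling and 2 under each of the other scalings. Without exposed replicate 2, 1 was higher and 4 were lower, with a median of -0.01. Stat3 was at 33.8 ± 0.9 and 34.7 ± 0.9 TPM and Il6ra at 8.13 ± 0.25 and 8.32 ± 0.74 TPM (SD, n = 4 each, limma adjusted p = 0.654 and 0.887), while Hamp, Saa1 and Saa2 were listed at 0.

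The genes whose levels followed Mt1 and Mt2 most closely were found by Pearson's r of log2(TPM + 1) over the 8 samples among the 12116 tested genes outside the members, as a description. For Mt1 they were Erp29 (0.98), Drg1 (0.98), Ywhaz (0.97), Pitpnb (0.97) and Nr1h4 (0.97). For Mt2 they were Commd8 (0.99), Zfp955b (0.99), Ptges3 (0.98), Dstn (0.96) and Txndc17 (0.96). The named genes were picked as the highest of 12116 over 8 samples, so high coefficients follow in part from the picking. Each of them also had a higher mean in exposed samples. For deviations from the means of the conditions the coefficients ran from 0.89 (Pitpnb with Mt1) to 0.97 (Zfp955b with Mt2). The 2 groups had no gene in common, and 610 genes had a higher coefficient with Mt1 than Mt2 had. Seen from Mt2, 231 genes ranked above Mt1.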

How the data were processed

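RNA-seq of AML12 cells was analysed from the TPM tables deposited by the authors, 1 for each of 4 control and 4 exposed samples. Libraries were made with a stranded mRNA kit. The submitters' processing notes name Trimmomatic 0.39, STAR 2.7.4a, RSEM 1.3.3 and mm10, and the annotation is not given in the sources used here. TPM has the same total in each sample, so depth is unknown and count models were not used. RSEM divides reads shared between genes by its own estimate.

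The 12122 genes that reached a TPM of 1 in 4 samples or more were compared with limma 3.58.1 (lmFit, eBayes with trend) in R 4.3.3 on log2(TPM + 1), with Benjamini-Hochberg adjustment. Exact two-sided permutation tests enumerated all 70 assignments of samples, or all pairings for a correlation, in Python 3.11.15. The limma code was tested on simulated data. Positions were taken from GENCODE M21 (GRCm38, the assembly of mm10), in which 55141 of the 55401 identifiers were found.

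The members and lists were chosen with earlier results of these data known. The text names every member, every tested metallothionein or zinc transporter, the pair of lowest p-value from each further list, and the 5 genes most like Mt1 and most like Mt2. Hmox1, genes under the abundance limit and marker genes are named outside that rule, after their values were seen. Alternatives covered the pseudocount, filter, scaling, variance trend, replicate block and leaving out each sample.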

Additional observations from a re-analysis of the deposited data

Results flagged for a closer look

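Groups of 4 values were examined for a lone sample with Dixon's test, which marks about 1 in 20 groups by chance. Of 44 groups, 4 had one, against an expected 2.2. For Slc30a4, control replicate 3 had 18.57 TPM and the other controls 17.77 to 17.82 TPM. For Slc30a5, control replicate 1 had 45.17 TPM and the other controls 41.98 to 42.48 TPM. For Slc39a6, control replicate 3 had 15.56 TPM and the other controls 13.20 to 13.59 TPM. The log2 ratio of Slc39a14 to Slc30a1 was 2.307 in exposed replicate 2 and 2.077 to 2.108 in the other exposed samples. Their cause was not tested.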

How the results depend on the processing

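TPM without depth and 4 samples per condition limit what could be detected. Mt1 (0.08 to 0.14) and Mt2 (0.12 to 0.19) stayed higher, and Slc39a10 (0.0012 to 0.055) higher and Slc39a14 (-0.086 to -0.0096) lower, under all 16 alternatives, none with an adjusted p-value under 0.05. Leaving out 1 sample in turn, Mtf1 ran from -0.13 to 0.014, Slc30a1 from -0.00012 to 0.048, the genes with an adjusted p-value under 0.05 from 0 to 2 (2 without control replicate 2), those higher with no overlap from 1098 to 1622 (1622 without exposed replicate 1), those lower with no overlap from 301 to 488 (488 without control replicate 1, 435 without exposed replicate 4, 407 without exposed replicate 2), and the stress list's median from 0.0049 (without control replicate 1) to 0.057. In the same way the median of the interleukin-6 list ran from -0.012 (without exposed replicate 2) to 0.050 (without exposed replicate 1), that of importers from -0.0026 (without exposed replicate 2) to 0.040, and that of the glucocorticoid list from -0.018 to 0.015 (above 0 without exposed replicate 1 or control replicate 4). With fewer samples fewer values need to be separated for a gene not to overlap. For the other results the cause was not tested.

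The samples share replicate numbers only, and the deviations of same-numbered samples had correlations of -0.042 to 0.026, with 0 of 8 samples closest to their own number. With the replicate block the log2 fold changes of Mt1 (0.12, adjusted p = 0.226) and Mt2 (0.15, adjusted p = 0.238) were the same, 0 genes passed the adjusted test against 0 without it, and 1430 genes were higher and 459 lower at an unadjusted p under 0.05 against 1451 and 443.

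With TPM as deposited 971 genes were higher and 225 lower with no overlap. Under upper-quartile scaling these were 408 and 489, under median-of-ratios scaling 461 and 463, and under rescaling without mitochondrial genes 464 and 393. With any TPM above 0, 365 were lower. Genes with an adjusted p-value under 0.05 numbered 1 with TPM of at least 1 in all 8 samples, upper-quartile scaling, median-of-ratios scaling or no trend. The share of higher genes among those with unadjusted p under 0.05 was 76.6%, against 42.3%, 47.1% and 50.7% under the 3 scalings in the order above. In that order the list medians were -0.053, -0.048 and -0.049 for other MTF-1 targets, -0.015, -0.011 and -0.011 for copper handling, and 0.0063, 0.011 and 0.010 for the stress list. They were 0.020, 0.024 and 0.024 for exporters, and -0.043, -0.039 and -0.039 for the glucocorticoid list.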
